A study of Mus musculus with 8 samples.

Results

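Retention and adhesion receptors were examined in sorted hematopoietic stem cells (HSCs) of mice with and without acute hemolytic anemia. Members were the rows whose symbol was Cxcr4, S1pr1, Itga4, Itga6, Itgal, Itgb1, Itgb2, Cd44 or Vcam1, which gave 9 genes of the 15142 listed for all groups, and 8 of the 9 were among the 11347 genes tested. All mice were C57BL/6 of wild-type (WT) genotype. Control BM libraries (HSCs, n = 3) came from bone marrow of mice whose treatment is given as PBS with the samples, although the study's text describes them as untreated. PHZ BM (n = 3) and PHZ SP (n = 2) libraries came from bone marrow and spleen of mice given phenylhydrazine (PHZ), a drug that oxidizes hemoglobin and lyses red blood cells, at 60 mg/kg in 2 intraperitoneal injections, with cells sorted on day 3 after the last one. The samples carry no ages, and the study's methods give 1 range of young adult age, with both sexes, for its mice in general. The study describes its numbers as separate animals but states none for these libraries, and the samples do not say whether a library was 1 animal or a pool, so the p-values measure the spread between these libraries, which may be technical. Cells were sorted as lineage-negative, Sca-1+, c-kit+, CD150+ and CD48-/low, and none of the 9 receptors was part of that gate. Splenic HSCs of control mice were not analysed here, so a difference of PHZ SP from control BM joins treatment, organ and the way each organ was dissociated (marrow flushed or crushed, spleen smashed), and these cannot be told apart. A difference of PHZ SP from PHZ BM still joins organ and dissociation.

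As background, HSCs are held in the marrow by a small set of surface receptors. CXCR4 binds the chemokine CXCL12 made by marrow stroma, and the integrin α4β1, encoded by Itga4 and Itgb1, binds VCAM-1 on stroma, endothelium and macrophages. S1PR1 reads the sphingosine-1-phosphate gradient toward blood, and CD69 opposes it at the cell surface while the transcription factor KLF2 drives its gene in lymphocytes. Integrin α6β1 binds laminin, αLβ2 (Itgal with Itgb2) binds ICAM-1, and CD44 binds hyaluronan. Loss of these contacts lets HSCs leave the marrow, and the spleen is the main site they colonize for stress erythropoiesis in mice.

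Levels are given as FPKM, fragments per kilobase of gene length, scaled to library depth, which allows genes to be compared per length within a library. On this scale Itgb1 was the most abundant member in every library, at 18.9 to 39.5 FPKM, and Itgal and Vcam1 were the least abundant in every marrow library. All 9 genes are protein-coding. In the RefSeq annotation of GRCm38 (mm10), Cxcr4 lies on chromosome 1 from 128588199 to 128592299, S1pr1 on chromosome 3 from 115710433 to 115715055 and Vcam1 on chromosome 3 from 116110020 to 116129688. Itga6 lies on chromosome 2 from 71786886 to 71858427, Itga4 on chromosome 2 from 79255426 to 79333114 and Cd44 on chromosome 2 from 102811141 to 102901669. Itgal lies on chromosome 7 from 127296139 to 127335137, Itgb1 on chromosome 8 from 128685654 to 128733579 and Itgb2 on chromosome 10 from 77530329 to 77565708.

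**Figure D1:**
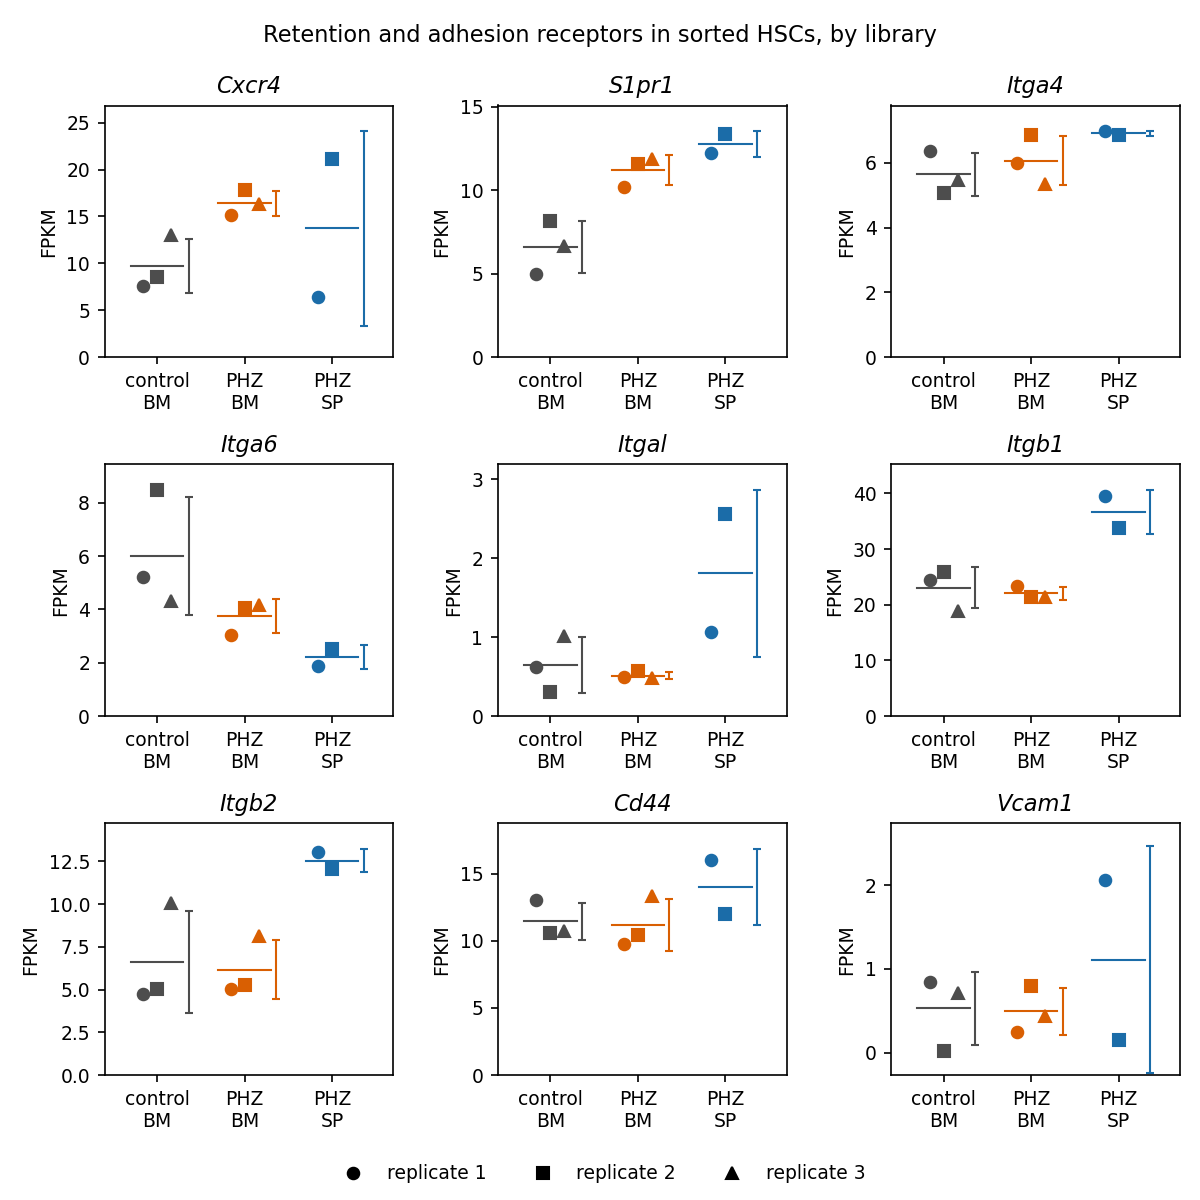
FPKM of the 9 receptor genes in each library (y axis), by group (x axis). Points are libraries, with their shape giving the replicate number, horizontal bars are group means and the offset bars are ± 1 SD. Both PHZ SP libraries lie above all 6 marrow libraries for S1pr1, Itga4, Itgal, Itgb1 and Itgb2 and below them for Itga6, while the 2 splenic Cxcr4 values, 6.38 and 21.1 FPKM, span the marrow values.

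Splenic HSCs of PHZ-treated mice had higher levels of both integrin β chains and a lower level of the laminin-receptor chain Itga6 than either marrow group, although no member passed the test across all genes. Itgb1 averaged 36.7 ± 3.99 FPKM (SD, n = 2) in PHZ SP against 23.1 ± 3.72 (n = 3) in control BM and 22.0 ± 1.11 (n = 3) in PHZ BM. Itgb2 averaged 12.5 ± 0.693 FPKM against 6.61 ± 2.97 and 6.16 ± 1.73. Itga6 averaged 2.21 ± 0.456 FPKM against 6.01 ± 2.20 and 3.75 ± 0.624. S1pr1 was higher in both PHZ groups than in control BM, and Cxcr4 differed so much between the 2 splenic libraries that no direction could be given.

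The test was limma on log2(FPKM + 1) with p-values adjusted by the Benjamini-Hochberg method over all 11347 genes, and a fold change on this scale understates the change of low genes. Of the 8 members tested, 0 passed an adjusted p of 0.05 in PHZ SP against control BM, where 0.758% of all genes did. The same count was 0 in PHZ SP against PHZ BM (0.978% of all genes) and 0 in PHZ BM against control BM (2.74%). The smallest adjusted p-values of a member were 0.103, 0.124 and 0.111 in these comparisons. At an unadjusted p under 0.05, limma picked 4, 3 and 1 members, against 15.8%, 13.5% and 16.6% of all genes, and voom on reads worked back from the FPKM picked 5, 3 and 2, with 0 past the adjusted threshold in each. The median log2 difference over the 8 members was 0.47, 0.24 and -0.04, beside -0.001, -0.02 and 0.01 over all genes.

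Both splenic libraries lay above every control library for 5 of the 8 tested members, against 15.2% of all genes, and above every PHZ BM library for the same 5 members, against 17.4%. These were S1pr1, Itga4, Itgal, Itgb1 and Itgb2. A position above all 6 marrow libraries was found for 7.07% of all genes. Itga6 alone lay below all 6, as 6.46% of all genes did. Cxcr4, Cd44 and Vcam1 overlapped with both marrow groups. Both splenic comparisons use the same 2 PHZ SP libraries, so their counts are not separate evidence. With upper quartile scaling the 5 became 4 in both comparisons, without Itgal against control BM and without Itga4 against PHZ BM, and Itga4 also left the second count with the FPKM as deposited.

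**Figure D2:**
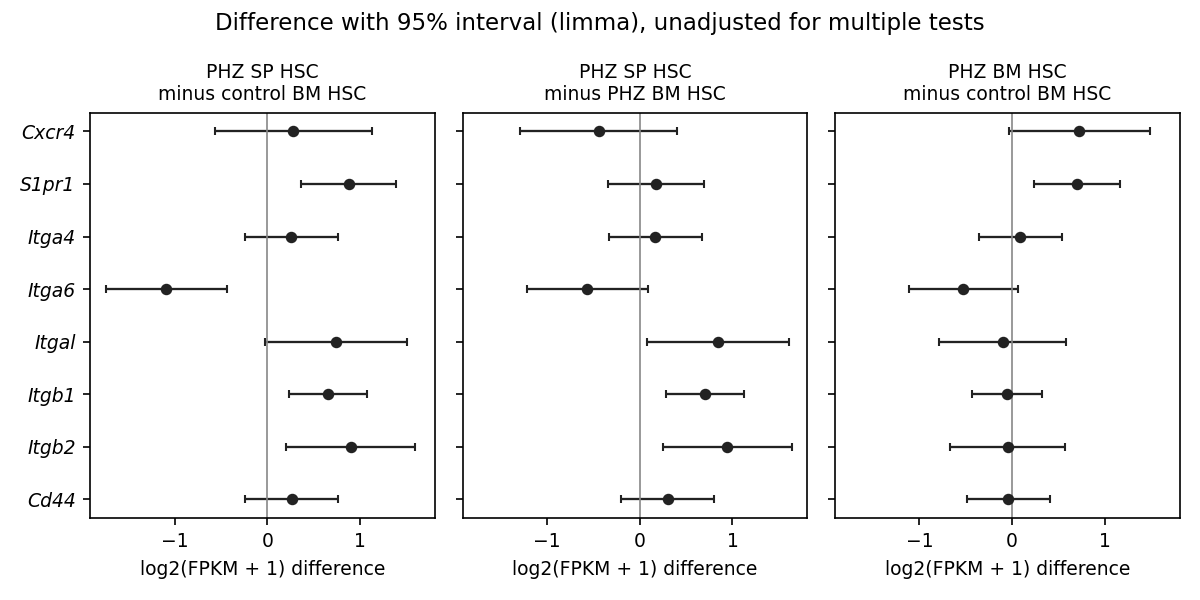
Difference in log2(FPKM + 1) between groups (x axis) for the 8 tested members (y axis) in the 3 comparisons, with points for the limma estimate and bars for its 95% interval without adjustment for multiple tests. Intervals for Itgb1 and Itgb2 lie above 0 in both splenic comparisons, and that for Itga6 lies below 0 only against control BM.

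The β1 chain Itgb1 pairs with many α chains, among them α4 and α6. Its level was 24.4, 25.9 and 18.9 FPKM in control BM, 23.3, 21.5 and 21.3 in PHZ BM, and 39.5 and 33.8 in PHZ SP. All marrow libraries were thus close together and both splenic libraries were higher, 1.59-fold over control BM and 1.66-fold over PHZ BM in mean FPKM. On the log2 scale the difference was 0.65 (SE 0.19, 95% interval 0.23 to 1.07, limma adjusted p = 0.134) against control BM and 0.71 (SE 0.19, 0.29 to 1.13, adjusted p = 0.124) against PHZ BM. Between the marrow groups the difference was -0.05 (-0.43 to 0.32).

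The leukocyte chain Itgb2 showed the same order with wider spread in the marrow. Control BM libraries had 4.76, 5.04 and 10.04 FPKM, PHZ BM had 5.06, 5.27 and 8.16, and PHZ SP had 13.0 and 12.1. In each marrow group replicate 3 was the high one, and the splenic values exceeded both. The log2 difference was 0.90 (SE 0.32, 0.20 to 1.59, limma adjusted p = 0.197) against control BM and 0.94 (SE 0.32, 0.25 to 1.64, adjusted p = 0.215) against PHZ BM.

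Its partner Itgal, the α chain of the ICAM-1 receptor, was low throughout. It was at 0.623, 0.303 and 1.02 FPKM in control BM, at 0.494, 0.567 and 0.483 in PHZ BM, and at 1.062 and 2.56 in PHZ SP. The lower splenic value was nearly that of the highest control library, with 78 and 86 reads behind them, and their exact Poisson 95% intervals of 0.839 to 1.33 and 0.815 to 1.26 FPKM overlapped (both cover counting error only). The log2 difference was 0.74 (-0.03 to 1.51, limma adjusted p = 0.333) against control BM and 0.84 (0.07 to 1.60, adjusted p = 0.322) against PHZ BM. Leaving out PHZ SP replicate 2 brought these to 0.35 and 0.45, leaving out replicate 1 brought them to 1.13 and 1.23, and a pseudocount of 0.1 in place of 1 brought them to 1.35 and 1.52, with adjusted p-values of 0.403 and 0.408.

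Itga4, the α chain of the VCAM-1 receptor, differed little between groups. Its values were 6.37, 5.08 and 5.46 FPKM in control BM, 6.00, 6.85 and 5.36 in PHZ BM, and 6.97 and 6.86 in PHZ SP. The splenic libraries were the highest, but the lower of them was above PHZ BM replicate 2 only in the second decimal. The log2 difference was 0.26 (-0.24 to 0.76, limma adjusted p = 0.622) against control BM and 0.17 (-0.33 to 0.67, adjusted p = 0.806) against PHZ BM, or 0.095 without PHZ BM replicate 3.

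Itga6, the α chain of laminin receptors, ran the other way. Its values were 5.21, 8.49 and 4.31 FPKM in control BM, 3.04, 4.04 and 4.18 in PHZ BM, and 1.89 and 2.53 in PHZ SP, so that the 3 groups did not overlap. Control BM HSC replicate 2 was well above the other control libraries. PHZ SP had a mean 2.72-fold lower than control BM, a log2 difference of -1.09 (SE 0.30, -1.74 to -0.44, limma adjusted p = 0.111), and 1.70-fold lower than PHZ BM, a log2 difference of -0.56 (-1.22 to 0.09, adjusted p = 0.445). PHZ BM itself was at -0.52 (-1.11 to 0.06, adjusted p = 0.350) against control BM, and at -0.28 without control BM replicate 2. Itga6 was the single member below control BM in every library of both PHZ groups, as 4.94% of all genes were.

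Because FPKM is per gene length, subunits can be set against each other within a library, which removes the scaling between libraries. The ratio of Itga4 to Itga6 was 1.22, 0.598 and 1.27 in control BM, 1.98, 1.69 and 1.28 in PHZ BM, and 3.69 and 2.71 in PHZ SP. The marrow groups were separated by very little, and both splenic libraries were clearly above them. The ratio of Itgb1 to Itga6 was 4.68, 3.05 and 4.37, then 7.67, 5.31 and 5.10, and 20.9 and 13.4 in the same order. Itgb1 to Itga4 was 4.13 ± 0.865 (SD, n = 3) in control BM, 3.67 ± 0.462 (n = 3) in PHZ BM and 5.30 ± 0.520 (n = 2) in PHZ SP, where the lower splenic library overlapped with the control group. These ratios were chosen with the levels known and carry no test, and a ratio shows unequal change without saying which subunit moved.

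**Figure D3:**
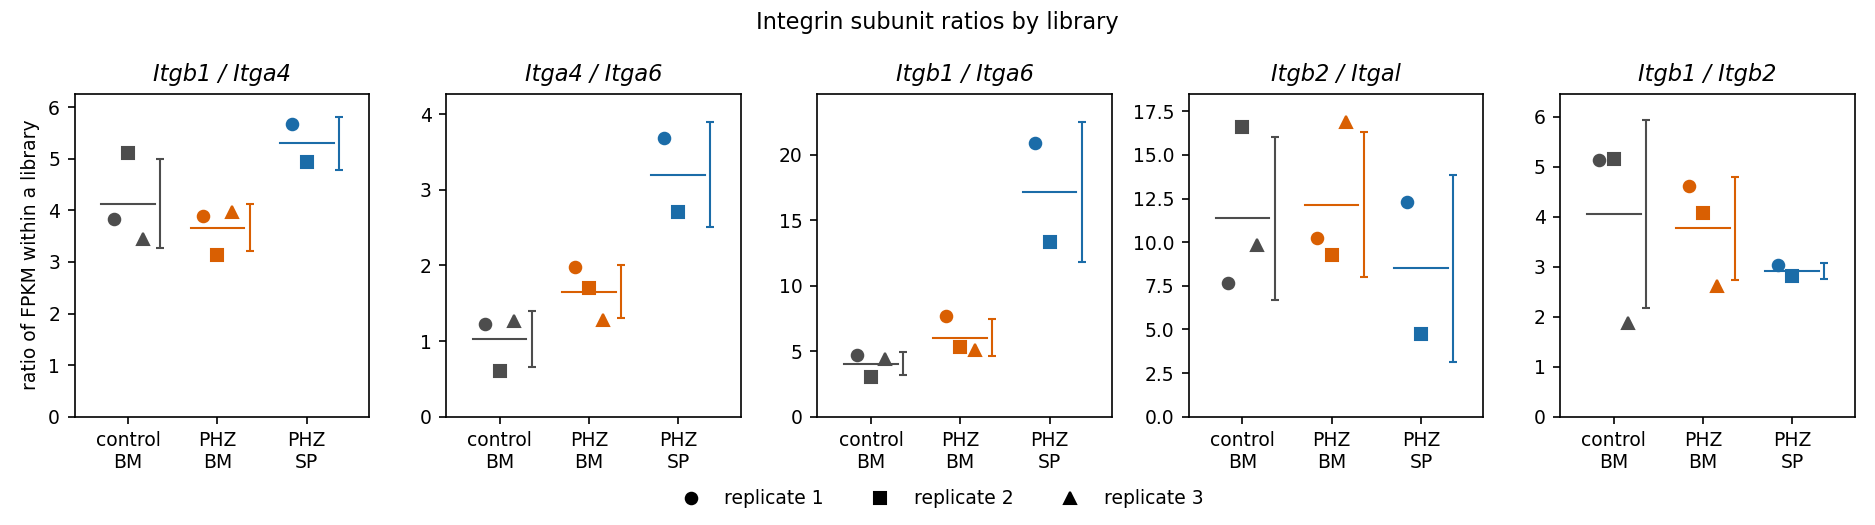
Ratio of the FPKM of integrin subunits within each library (y axis), by group (x axis), with points for libraries, horizontal bars for group means and offset bars for ± 1 SD. The Itga4 to Itga6 and Itgb1 to Itga6 ratios are highest in the 2 PHZ SP libraries, at 2.71 to 3.69 and 13.4 to 20.9, while Itgb2 to Itgal and Itgb1 to Itgb2 overlap between groups.

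Cxcr4, the receptor for the marrow retention signal CXCL12, split the splenic libraries. It was at 7.64, 8.56 and 13.0 FPKM in control BM, at 15.1, 17.8 and 16.3 in PHZ BM, and at 6.38 and 21.1 in PHZ SP. Every PHZ BM library was above every control library, as for S1pr1 and for 12.3% of all genes. By contrast, 1 splenic library was the lowest of all 8 and the other the highest. The splenic values, 3.31-fold apart, rested on 129 and 397 reads, with exact Poisson 95% intervals of 5.33 to 7.58 and 19.1 to 23.3 FPKM. The intervals did not overlap, but they cover the counting of reads only and not the capture or amplification of molecules. A gap this large was seen in 45 of the 5647 genes whose splenic mean reached 5 FPKM (0.797%). For comparison, 36.6% of those genes had a gap as large as that of Cd44, and 60.2% or more as that of S1pr1, Itga4, Itgb1 or Itgb2, the other members at that level.

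The group comparison for Cxcr4 therefore turned on which splenic library was kept. The log2 difference was 0.28 (SE 0.39, -0.57 to 1.13, limma adjusted p = 0.768) against control BM and -0.44 (SE 0.39, -1.29 to 0.41, adjusted p = 0.681) against PHZ BM. Without PHZ SP replicate 2 the first became -0.51, and without replicate 1 the second became 0.35. In the marrow, PHZ BM was 0.73 above control BM (-0.03 to 1.49, adjusted p = 0.321). The genes most like Cxcr4 over the 8 libraries by Pearson correlation of log2(FPKM + 1) were Ddx42 (r = 0.989), Rufy4 (r = 0.973) and Zfp248 (r = 0.962), picked as the highest of 11346 and given as a description. Ddx42, an RNA helicase, had 10.05 and 19.4 FPKM in the splenic libraries and 11.7 to 18.3 in the marrow.

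S1pr1, the receptor that directs cells toward blood, was higher in the PHZ libraries of both organs than in control BM. Its values were 5.004, 8.13 and 6.69 FPKM in control BM, 10.2, 11.6 and 11.9 in PHZ BM, and 12.2 and 13.3 in PHZ SP. All 5 PHZ libraries were above all 3 control libraries, as was so for 5.42% of all genes. The log2 difference from control BM was 0.88 (SE 0.23, 0.36 to 1.39, limma adjusted p = 0.103) for PHZ SP and 0.70 (SE 0.21, 0.24 to 1.16, adjusted p = 0.111) for PHZ BM, comparisons that share the control libraries. Between PHZ SP and PHZ BM it was 0.18 (-0.34 to 0.69, adjusted p = 0.804), or 0.12 without PHZ BM replicate 1, and the splenic libraries were the higher ones by a small margin.

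Cd44, the hyaluronan receptor, was at 13.0, 10.5 and 10.8 FPKM in control BM, at 9.73, 10.4 and 13.3 in PHZ BM, and at 16.0 and 12.0 in PHZ SP. The groups overlapped, and only splenic replicate 1 lay above all marrow libraries. The log2 difference was 0.26 (-0.24 to 0.76, limma adjusted p = 0.616) and 0.30 (-0.20 to 0.80, adjusted p = 0.614) against the control and PHZ marrow groups, and 0.068 and 0.11 without splenic replicate 1.

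Vcam1, the ligand of α4β1, did not reach 1 FPKM in the 2 libraries needed for testing. It was at 0.842, 0.0217 and 0.716 FPKM in control BM, at 0.243, 0.793 and 0.440 in PHZ BM, and at 2.07 and 0.151 in PHZ SP. Splenic replicate 1 was the highest of all libraries with 118 reads, and splenic replicate 2 had 8. Fitted with no filter on low values, its log2 difference was 0.35 (SE 0.43) against each marrow group. In splenic replicate 1, the sinusoidal endothelial genes Stab2 and Plvap were at 4.36 and 6.71 FPKM, against at most 0.389 in every other library. The summed level of the 12 endothelial and stromal markers was 23.1 FPKM there and 7.97 to 12.0 elsewhere. Cdh5, an endothelial cadherin, was at 0.255 FPKM there and at most 0.0229 in every other library, and Lyve1 was at 0. Kdr, a VEGF receptor of endothelium, was at 0.347 FPKM there, below its 1.29 and 1.03 in PHZ BM replicates 1 and 2. The part of such cells in the Vcam1 value was not tested.

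Promoters of Itgb1, Itga4 and Cxcr4 are shown because the first pair encodes the VCAM-1 receptor and Cxcr4 split the splenic libraries. They are RefSeq sequences on GRCm38.p6, each running from 250 bases before to 50 after the gene start, and 4 of the 9 members matched the table. Capitals mark matches, on either strand, to CACCC (the core bound by Krüppel-like factors), GGGCGG (the GC box), AGATAA (the motif of GATA factors) and TGACTCA (bound by AP-1), and none of these matches overlapped another.
Itgb1 (chr8:128685404-128685703, + strand): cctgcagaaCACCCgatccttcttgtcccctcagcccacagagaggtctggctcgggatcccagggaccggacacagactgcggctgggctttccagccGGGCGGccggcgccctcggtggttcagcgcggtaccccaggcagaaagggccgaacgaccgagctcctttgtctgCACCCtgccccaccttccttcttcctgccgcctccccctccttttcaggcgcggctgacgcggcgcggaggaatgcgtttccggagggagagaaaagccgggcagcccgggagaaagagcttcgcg
Itga4 (chr2:79255176-79255475, + strand): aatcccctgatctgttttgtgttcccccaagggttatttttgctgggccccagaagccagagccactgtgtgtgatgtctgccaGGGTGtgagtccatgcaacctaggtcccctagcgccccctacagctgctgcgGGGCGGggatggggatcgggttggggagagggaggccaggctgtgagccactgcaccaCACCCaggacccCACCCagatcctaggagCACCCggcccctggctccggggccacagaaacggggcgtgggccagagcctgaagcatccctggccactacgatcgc
Cxcr4 (chr1:128592250-128592549, - strand): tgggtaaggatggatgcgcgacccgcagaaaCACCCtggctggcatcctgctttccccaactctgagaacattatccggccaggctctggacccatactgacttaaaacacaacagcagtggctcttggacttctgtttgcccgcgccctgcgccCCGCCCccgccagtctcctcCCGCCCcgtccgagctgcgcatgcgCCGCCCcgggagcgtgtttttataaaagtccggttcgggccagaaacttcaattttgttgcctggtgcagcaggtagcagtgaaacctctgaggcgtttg
CACCC was found 2 times in the Itgb1 promoter, 4 times in that of Itga4 and 1 time in that of Cxcr4, and 57.5% of the 32851 promoters in the table held it. GGGCGG was found 1, 1 and 3 times, and 35.7% of all promoters held it. AGATAA and TGACTCA, held by 11.2% and 5.20% of all promoters, were not in any of the 3 windows, whereas the Cd44 promoter, the other one matched, held AGATAA 1 time. The GC content was 67.3% for Itgb1, 64.3% for Itga4 and 59.3% for Cxcr4, above the median of 52.7%. These are descriptions of the letters and not of binding.

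The wider adhesion and migration machinery was read from 7 lists that held 164 genes, of which 150 were listed and 110 tested. In PHZ SP against control BM 4 of the 110 rose and 0 fell (3.64%, where 0.626% of all genes rose and 0.132% fell), and 34 had an unadjusted limma p under 0.05, against 15.8% of all genes. Against PHZ BM 1 rose and 0 fell (0.909%, where 0.608% of all genes rose), and 20 had such a p, against 13.5%. In PHZ BM against control BM 6 rose and 0 fell (5.45%, where 1.48% of all genes rose), and 30 had such a p, against 16.6%. The median log2 difference over the 110 was 0.16, 0.01 and 0.12.

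Among the 7 other integrin subunits tested, Itgb7, the β chain that pairs with α4 to bind the mucosal addressin MAdCAM-1, rose in the spleen. It had 5.13, 4.35 and 5.95 FPKM in control BM, 7.37, 8.22 and 7.48 in PHZ BM, and 15.4 and 14.6 in PHZ SP. The 3 groups did not overlap, and the log2 difference from control BM was 1.39 (SE 0.22, limma adjusted p = 0.0202). It stood at 0.88 (adjusted p = 0.0896) against PHZ BM. The call against control BM was lost without control BM replicate 2, PHZ BM replicate 2 or either splenic library, with adjusted p-values up to 0.158, and in a fit of the 2 groups alone (adjusted p = 0.0962). Itga2b, a megakaryocyte and stem cell integrin chain also in the megakaryocyte marker list, was at 15.6 ± 7.46 FPKM (SD, n = 3), 25.0 ± 9.78 (n = 3) and 13.1 ± 5.20 (n = 2) in the control, PHZ BM and PHZ SP groups. Itgam, the myeloid partner of Itgb2, was at 0.352 to 2.45 FPKM in all libraries, with 0.659 and 1.01 in the spleen.

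Of the 32 tested selectins, mucins and other adhesion molecules, 2 rose in PHZ SP relative to control BM (Selp and Cd53), 1 relative to PHZ BM (Cd74) and 3 between the marrow groups (Selplg, Cd63 and Cd53). Selp, which encodes P-selectin, had 4.91, 3.11 and 0.793 FPKM in control BM, 6.42, 8.08 and 12.6 in PHZ BM, and 13.8 and 28.0 in PHZ SP. It rose in PHZ SP against control BM with a log2 difference of 2.56 (SE 0.47, limma adjusted p = 0.0411). That call is fragile, since it held in 2 of 8 fits that left out a library (those without control BM replicate 1 or PHZ BM replicate 3) and in 3 of the other 8 settings. Without control BM replicate 3 the difference was 2.07, and the adjusted p reached 0.159 without splenic replicate 2.

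Selplg, which encodes the P-selectin ligand PSGL-1, had 22.4, 30.9 and 45.9 FPKM in control BM, 59.7, 67.2 and 64.5 in PHZ BM, and 51.4 and 54.1 in PHZ SP. It rose in PHZ BM against control BM (log2 difference 0.98, SE 0.22, limma adjusted p = 0.0367), where only the fit without control BM replicate 3 kept the call among those leaving out a library (adjusted p up to 0.155). Of the 8 other settings, 5 kept the call.

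Cd53, a tetraspanin that binds integrins in leukocytes, gave the largest difference of the 110 genes tested in the splenic comparison with control BM. It was at 4.70, 5.14 and 10.4 FPKM in control BM, at 28.0, 32.8 and 76.3 in PHZ BM, and at 87.2 and 110 in PHZ SP. The groups did not overlap, with a log2 difference from control BM of 3.75 (SE 0.40, limma adjusted p = 0.00188) in the spleen and 2.52 (SE 0.36, adjusted p = 0.00433) in the marrow. Both calls held in all 8 fits that left out a library and in all 8 other settings. Between the PHZ groups it stood at 1.23 (adjusted p = 0.203), or 1.66 (adjusted p = 0.0414) without PHZ BM replicate 3.

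Of the 10 proteases and inhibitors tested, Mmp9 alone rose. This gene, for a gelatinase that cleaves matrix and membrane-bound niche factors, was at 0.506 to 0.549 FPKM in control BM, at 0.835, 1.11 and 2.05 in PHZ BM, and at 3.21 and 3.99 in PHZ SP. It rose in the spleen against control BM by a log2 difference of 1.58 (SE 0.31, limma adjusted p = 0.0470), a call that only the fit without PHZ BM replicate 3 kept among those leaving out a library (adjusted p up to 0.195) and that 2 of the other 8 settings kept. With a pseudocount of 0.1 the difference was 2.55 (adjusted p = 0.0745). Cd74, the invariant chain that also serves as a surface receptor for the cytokine MIF, was the gene that rose against PHZ BM. It was at 86.5, 97.2 and 86.1 FPKM in control BM, 72.6, 54.9 and 61.5 in PHZ BM, and 124.6 and 128.5 in PHZ SP. Its log2 difference was 1.004 (SE 0.15, limma adjusted p = 0.0146) against PHZ BM, lost without PHZ BM replicate 2 or either splenic library (adjusted p up to 0.155), and 0.49 (adjusted p = 0.159) against control BM.

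Of the 21 regulators of CXCR4 and S1P signalling tested, 0 passed in either splenic comparison (7 and 1 had an unadjusted limma p under 0.05, against 15.8% and 13.5% of all genes) and 1, Rgs1, rose between the marrow groups. Rgs1, which shortens signalling by CXCR4 and other G protein-coupled receptors, was at 18.3, 12.4 and 11.9 FPKM in control BM, at 62.0, 49.4 and 35.0 in PHZ BM, and at 34.1 and 13.7 in PHZ SP. It rose in PHZ BM against control BM by 1.70 (SE 0.32, limma adjusted p = 0.0162), a call lost without control BM replicate 2 or 3 or PHZ BM replicate 1 or 2 (adjusted p up to 0.0805). The call was also lost with no filter on low values. In the spleen replicate 1 was high and replicate 2 was in the control range, the reverse of Cxcr4. Robo4, the single gene past the threshold among the 8 other chemoattractant and guidance receptors and a receptor that helps anchor HSCs in marrow, rose in the same comparison from 4.63 ± 0.854 FPKM (SD, n = 3) to 10.4 ± 1.35 (n = 3). Its log2 difference was 1.03 (SE 0.21, limma adjusted p = 0.0279), lost without control BM replicate 1 or 3 or PHZ BM replicate 1 or 2 (adjusted p up to 0.154), and PHZ SP had 8.92 and 7.36 FPKM. Zyx, a focal adhesion protein and the only gene past the threshold among 29 integrin activation and adhesion complex genes, and Cd63, a tetraspanin, also rose there by 0.91 (limma adjusted p = 0.0373) and 0.64 (adjusted p = 0.0478). These calls held in 2 and 1 of 8 fits that left out a library, and in 4 and 1 of the 8 other settings.

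For S1pr1, its regulators gave a mixed picture. Klf2 was at 0, 1.38 and 0.505 FPKM in control BM, at 2.12, 1.61 and 3.98 in PHZ BM, and at 2.71 and 10.5 in PHZ SP. All PHZ libraries were above all control libraries, as for S1pr1, but the difference of 2.10 in PHZ SP did not pass (SE 0.50, limma adjusted p = 0.0827, or 3.61 with a pseudocount of 0.1 and adjusted p = 0.129). It was 1.28 without splenic replicate 2 and 2.91 without replicate 1, and passed in 0 of 8 fits that left out a library. Cd69 was at 0.502 to 5.49 FPKM in control BM, at 5.39 to 8.20 in PHZ BM, and at 0.135 and 6.45 in PHZ SP. The splenic values of Klf2, Cd69 and Cxcr4 were each lower in replicate 1 than in replicate 2.

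Cxcl12, the ligand of CXCR4 and a member of the endothelial and stromal marker list, was low in all libraries. It had 1.201, 0.812 and 3.53 FPKM in control BM, 0.0350, 0.0391 and 0.473 in PHZ BM, and 0.438 and 0.447 in PHZ SP. The part of endothelial or stromal cells in these values was not tested. No PHZ library reached a control library, yet the log2 difference of -1.17 (SE 0.37, limma adjusted p = 0.131) in the marrow and -0.86 (SE 0.41, adjusted p = 0.341) in the spleen did not pass. With a pseudocount of 0.1 these were -2.88 and -1.59, with adjusted p-values of 0.138 and 0.485. Ackr3, the second CXCL12 receptor, was listed at 0 in 7 libraries and at 4.73 FPKM in splenic replicate 1, the library with high Stab2 and Plvap, and the reads behind that value are fixed only up to a factor.

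**Figure D4:**
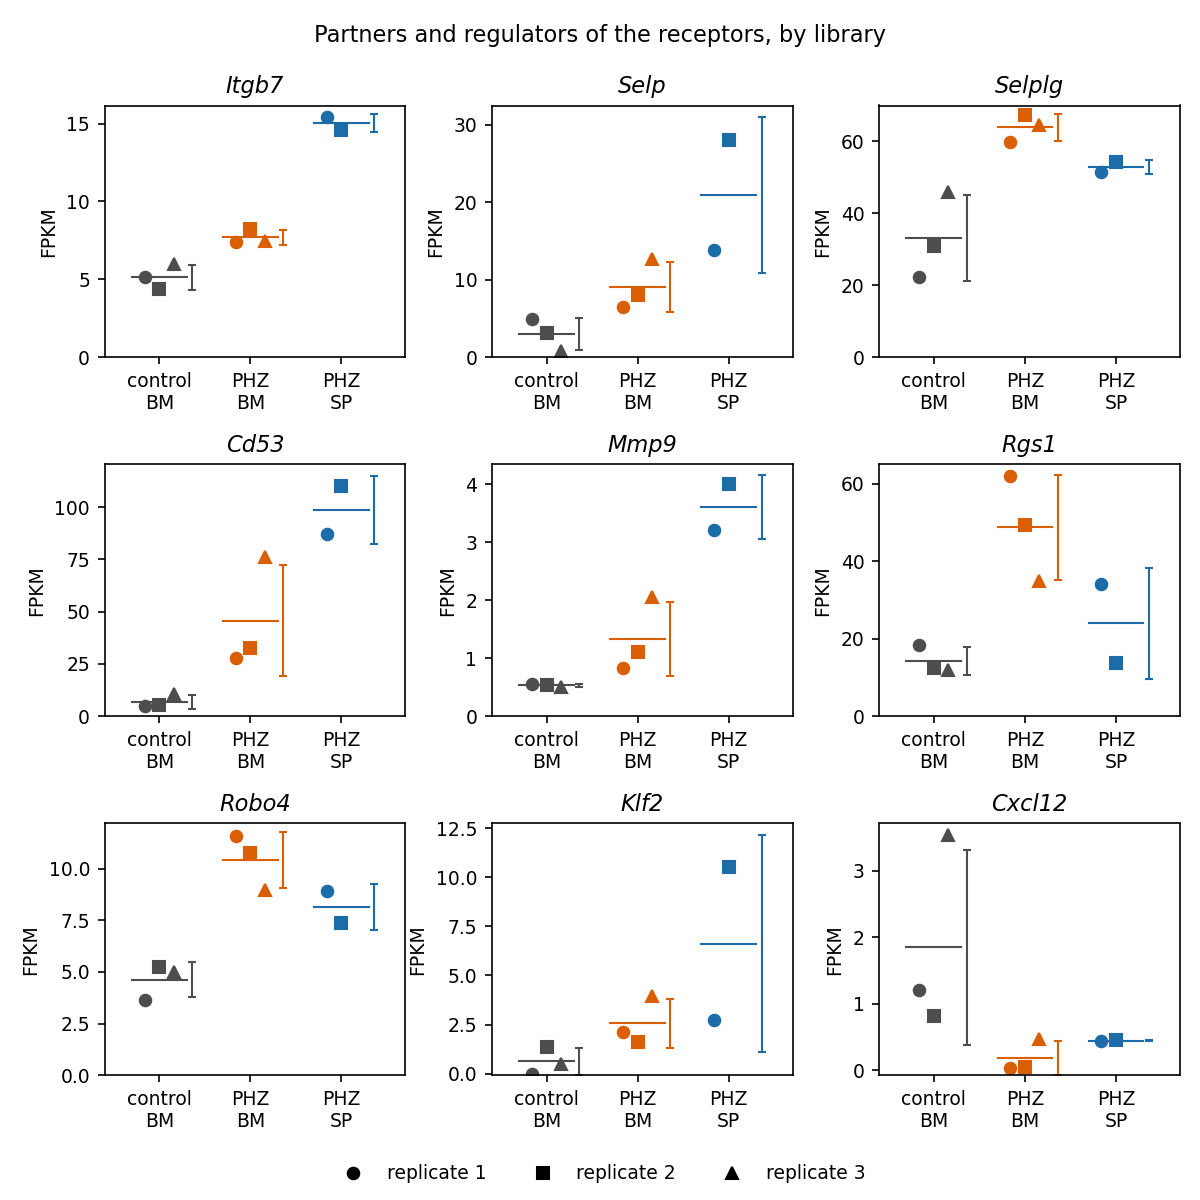
FPKM of 9 partners, ligands and regulators of the receptors in each library (y axis), by group (x axis), with points for libraries, horizontal bars for group means and offset bars for ± 1 SD. Itgb7 and Cd53 separate all 3 groups, Cxcl12 is lower in all PHZ libraries than in control BM, and Rgs1 has its highest values in PHZ BM.

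Depth and cell identity were as follows. Libraries held 8216626 to 13201359 reads as worked back from the FPKM, and 43.3 to 48.6% of them were from the ribosomal precursor Rn45s, which left 4656561 to 7161305. Correlation within groups was 0.903 to 0.976. Summed HSC markers (12 genes, Kit, Ly6a and Procr among them) were at 539 to 659 FPKM in control BM, 612 to 726 in PHZ BM and 652 to 668 in PHZ SP, and none was at 0 in any group. The marrow columns carry a name that can stand for whole bone marrow, but their sample titles give BM HSC.

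Summed erythroid, neutrophil and macrophage markers were higher in the spleen beside the integrin results, and those of lymphoid cells overlapped with the marrow. Summed erythroid markers were at 940 to 1150 FPKM in PHZ SP against 129 to 342 in the marrow, and 5 of the 9 tested rose against control BM. Summed neutrophil and granulocyte precursor markers were at 1428 to 1818 against 444 to 1083, where S100a8 and S100a9 made up most of the sum and 1 of 10 rose. Csf3r of that list went the other way, at 7.63 and 5.25 FPKM in the spleen against 7.69 to 15.0 in the marrow. Prtn3, at 111 and 133 FPKM in the spleen, was above control BM but below PHZ BM (169 to 214). Mpo and Elane lay within the marrow range. Macrophage markers summed to 44.0 to 72.0 against 12.2 to 25.6, carried by Cd68, with Adgre1 at 0 and 0.0890 and Csf1r at 0.155 and 0.333 FPKM in the splenic libraries. T and NK cell markers summed to 50.4 to 55.8 against 20.5 to 63.0, which overlapped, with Nkg7 at 26.9 and 27.9 FPKM in the spleen against 19.1 to 59.7 in the marrow. Klrb1c of that list was at 14.7 and 18.4 FPKM against at most 3.07 in the marrow, and Cd3e was at 0.679 and 0.0236. B cell markers summed to 39.5 to 54.6 against 27.6 to 50.6, which overlapped through Cd79b, the most abundant of them, but Cd79a, Ms4a1, Ebf1 and Pax5, at 0.185 to 5.03 FPKM in the spleen, were higher in both splenic libraries than in every marrow library. The lineage cocktail of the sort, as the methods describe it, holds antibodies to erythroid (Ter119), granulocyte (Gr-1), B cell (B220) and T cell antigens, which would remove cells that carry them on the surface, and no macrophage antigen. Itgb2, Itgal and Cd53 are expressed by mature leukocytes as well as by HSCs and Mmp9 is a neutrophil granule gene, while Itgb7 and Cd74 are expressed by lymphocytes and Cd74 strongly by B cells, and the part of such cells in their splenic values was not tested. In bulk libraries a larger share of cells with a gene and more RNA per cell cannot be told apart.

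Immediate early genes, which respond to stress and to cell handling, were highest in PHZ BM. Their summed level was 146 to 197 FPKM in control BM, 1027 to 1187 in PHZ BM and 340 to 361 in PHZ SP, and 10 of 12 rose in PHZ BM against control BM. In PHZ SP 4 of 12 rose relative to control BM and 7 of 12 fell relative to PHZ BM. Rgs1 was highest in the same group, and the part of this response in the Rgs1 and Cxcr4 values was not tested.

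**Figure D5:**
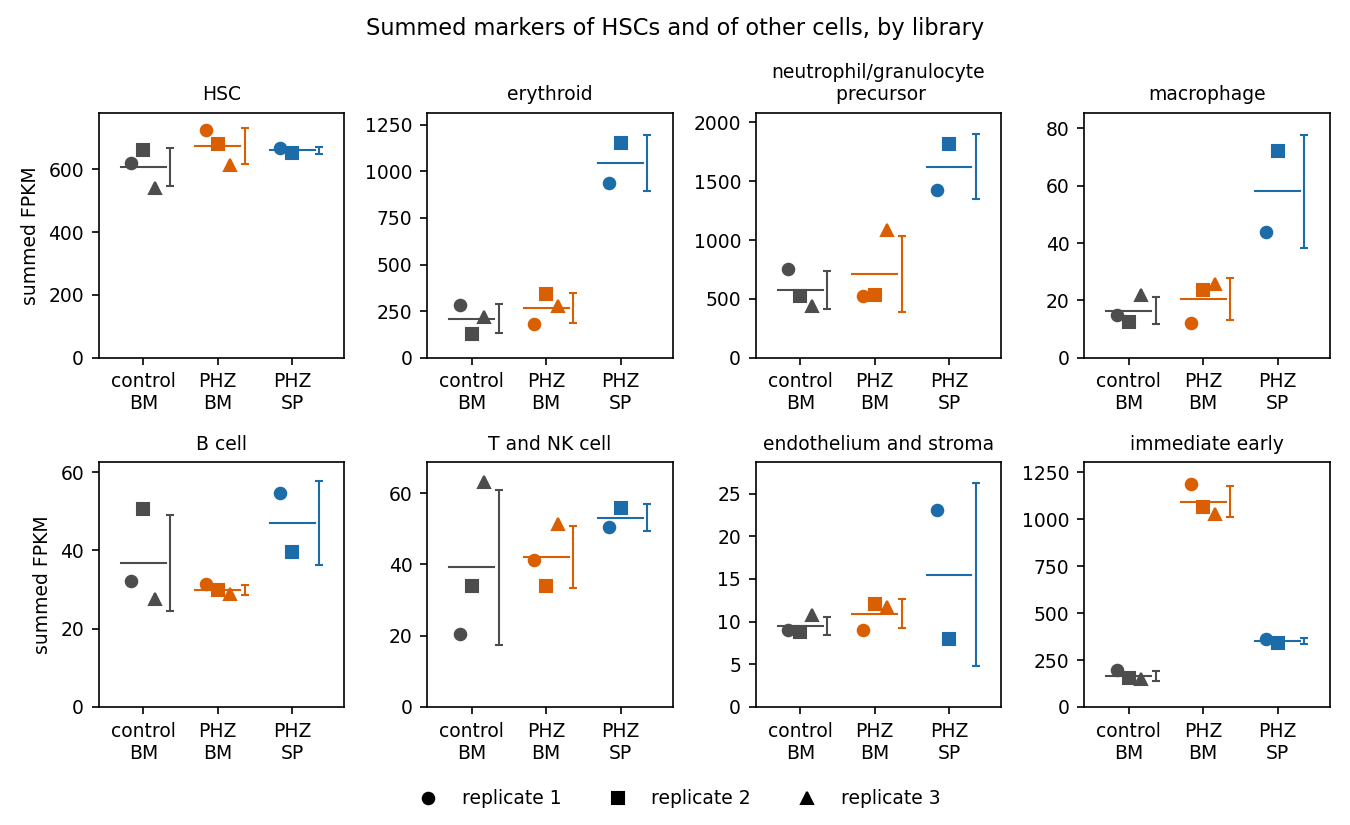
Summed FPKM of marker lists for HSCs, other cell types and the immediate early response in each library (y axis), by group (x axis), with points for libraries, horizontal bars for group means and offset bars for ± 1 SD. Erythroid and neutrophil or granulocyte precursor sums are highest in the 2 PHZ SP libraries (940 to 1150 and 1428 to 1818), the immediate early sum is highest in PHZ BM, and HSC markers overlap between groups.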

How the data were processed

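RNA of sorted HSCs was amplified with SMART-Seq2, libraries were made with Nextera XT, and reads were mapped by the authors to mm10 with STAR, with DESeq2 used for their comparisons. The counter, its annotation and its use of strand are not given in the sources used here, and no molecular identifiers were used, so the exact Poisson intervals allow for counting error and nothing else. FPKM were deposited by the authors per gene and library in 3 tables, and 2 further tables with their own fold changes and p-values were not used. The 3 tables were scaled separately, so 1 common set of median-of-ratios factors was applied, which moved values by at most 1.05%. All 110442 values above 0 were whole multiples of 1 read within a relative tolerance of 1e-09, although for 1503 genes the reads are fixed only up to a factor. Because the deposited unit was FPKM, limma 3.58.1 (R 4.3.3, trend and robust options) was fitted on log2(FPKM + 1) over all 8 libraries and 3 groups, for the 11347 genes with at least 1 FPKM in at least 2 libraries, two-sided, with Benjamini-Hochberg adjustment. The method was tested on simulated data. Alternatives were a pseudocount of 0.1, no filter on low values, only the compared groups, a replicate block, limma without the trend and robust options, FPKM as deposited, upper quartile scaling, voom on the reads worked back, and leaving out each library. Replicates agreed less closely than counting error would give in every pair, so none was merged. Promoters came from RefSeq and were searched by exact match. The members and lists were chosen with earlier results of these data known. Named genes were the 9 members, up to 10 genes in each direction from the 7 wider lists that passed in a comparison without overlap between groups, and Itgb7, Itga2b, Itgam, Selplg, Cd69, Klf2, Ackr3 and Cxcl12, and 1 further gene of that rule is not reported here. Figures were drawn with matplotlib 3.10.9 in Python 3.11.15.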

Additional observations from a re-analysis of the deposited data

How the results depend on the processing

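No member passed an adjusted p of 0.05 in any of the 8 other settings or 8 fits that left out a library (0 in each comparison, the replicate block included). Counts over all genes moved more. In PHZ SP against control BM the 86 genes past the threshold became 39 with a pseudocount of 0.1, 46 with no filter on low values and 44 with only the 2 groups, and 14 to 83 when a library was left out, the lowest without splenic replicate 1. Against PHZ BM the 111 became 62 with no filter, 63 without the trend and robust options and 71 with voom, and 6 to 146 when a library was left out, the lowest without splenic replicate 2. In PHZ BM against control BM the 311 became 205 with no filter and 204 without those options, and 115 to 306 when a library was left out, the lowest without PHZ BM replicate 2. The wider lists went from 4 to 2, 2 and 1 in the first comparison under the same 3 settings (1 to 4 on leaving out a library). In the second they went from 1 to 2 with the replicate block or upper quartile scaling and to 0 without the trend and robust options (0 to 2). In the third they went from 6 to 2 with no filter and to 3 with only the 2 groups or without those options (1 to 5). The causes were not tested.

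Replicate numbers are shared between groups, but same-numbered libraries did not deviate together (correlations of -0.0079, 0.0072 and 0.060 between the marrow groups, and -0.0022 to 0.029 with the spleen), so no pairing was used. With the replicate block 73, 112 and 294 genes passed. Under it the wider lists had 4 higher and 2 lower between the marrow groups, where Angpt1, Hmmr and Pecam1 entered (named after their values were seen) and Robo4 (adjusted p = 0.0557), Zyx and Cd63 left. In PHZ SP against control BM Pecam1 entered and Selp and Mmp9 left, and Cd53 passed between the PHZ groups at 1.60 (limma adjusted p = 0.00759). Of 1146 values of single genes under these settings, 1045 kept direction and side of the threshold, 77 lost the threshold, 6 gained it and 18 changed sign. With the replicate block Cd69 turned to 0.14 in PHZ SP against control BM. On leaving out a library, log2 differences that changed sign ranged, in that comparison, from -0.51 to 1.07 for Cxcr4, -0.018 to 1.23 for Rgs1, -0.17 to 0.052 for Cd63, -0.57 to 0.20 for Itga2b, -0.56 to 0.0078 for Itgam and -1.53 to 1.18 for Cd69. Cxcr4 ranged from -1.23 to 0.35 against PHZ BM. Between the marrow groups the ranges were -0.26 to 0.058 for Itgal, -0.19 to 0.034 for Itgb1, -0.24 to 0.25 for Itgb2 and -0.16 to 0.051 for Cd44. For the low genes Itgal and Vcam1 the exact Poisson 95% intervals of the 2 splenic libraries did not overlap (0.839 to 1.33 and 2.19 to 2.97 FPKM for Itgal, 1.71 to 2.48 and 0.0650 to 0.297 for Vcam1).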
